A study of Mus musculus with 152 samples.

Results

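Intracellular triglyceride lipases and their regulators were followed in mouse liver as 8 genes: the lipases Pnpla2, Lipe, Mgll and Lipa, the regulators Abhd5 and G0s2, and the patatin-like proteins Pnpla3 and Pnpla5. They were picked by symbol, with earlier results of these data known, and all 8 were found among 54532 genes. The livers were those of C57BL/6J mice, a common inbred strain. From 8 weeks of age the mice ate either LIDPAD, a feed designed to bring on fatty liver disease of the non-alcoholic type, or a purified control feed. Feeding went on for 1, 4, 8, 12, 16, 32 or 48 weeks, and each duration had its own LIDPAD and its own control group, 14 groups in all. There were 20 LIDPAD and 18 control libraries, with 2 in each group up to week 12 and 3 in each at week 16. Week 32 had 5 LIDPAD and 4 control libraries, and week 48 had 4 LIDPAD and 3 control libraries. No label says that libraries are separate animals, so the p-values measure the spread between libraries, which may be technical.

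In liver cells, stored triglyceride is cut stepwise on the surface of lipid droplets. Adipose triglyceride lipase (Pnpla2) removes the first fatty acid, hormone-sensitive lipase (Lipe) acts mainly on the diglyceride that is left, and monoglyceride lipase (Mgll) releases the last fatty acid. The protein of Abhd5 activates adipose triglyceride lipase and that of G0s2 inhibits it. Lysosomal acid lipase (Lipa) works in parallel on lipid that reaches lysosomes. Pnpla3 encodes a droplet protein that binds the activator Abhd5 and is known as a target of the lipogenic factors SREBP-1c and ChREBP, and Pnpla5 is a related patatin-like protein.

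Levels are in FPM, the deposited unit, in which a count is divided by the size factor of its sample and scaled per 1000000. Each log2 change is the LIDPAD mean minus the control mean of log2(FPM + 0.5), given ± SE, and understates the change of genes at low levels. A gene was called when its limma p-value, adjusted over all genes tested in that week by the Benjamini-Hochberg method, was under 0.05. In bulk liver, fewer cells of a type and less RNA per cell cannot be told apart.

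Depth ran from 10.9 to 53.8 M (1000000 reads) per library, with a median of 29.0 M. All 8 hepatocyte markers were measured in every week. On average over the weeks 7 of the 8 were called lower in LIDPAD livers (15.4% of all genes tested were). In 3 libraries over 1% of genes lay more than 4-fold from the median of the rest of their group, namely LIDPAD libraries 1 and 2 of week 32 (399 and 184 genes) and control library 3 of week 48 (548 genes). Control libraries 1 and 2 of week 4 differed from each other by over 4-fold at 124 genes, and library 2 held 11.3 FPM of the macrophage gene Gpnmb against 0.135 FPM in library 1.

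Among the 8 genes, the transcripts that rose with LIDPAD were those of the lipases and of the inhibitor G0s2, and the transcripts that fell were those of Pnpla3, Pnpla5 and the activator Abhd5. Averaged over the 7 weeks in a joint limma fit, 5 genes were called higher and 3 lower, where 22.1% of 16439 genes tested were called higher and 15.4% lower. Pnpla3 changed by -1.98 ± 0.31 (adjusted p = 1.25e-05) and Pnpla5 by -1.49 ± 0.30 (adjusted p = 0.000311). Abhd5 changed by -0.36 ± 0.09 (adjusted p = 0.00228). These 3 falls stood against rises of 0.64 ± 0.16 for Mgll (adjusted p = 0.00198) and 0.56 ± 0.21 for G0s2 (adjusted p = 0.0350). Lipe and Pnpla2 each rose by 0.28 ± 0.09 (adjusted p = 0.0107 and 0.0143), and Lipa rose by 0.17 ± 0.07 (adjusted p = 0.0481). The average call of Lipa was lost in 32 and that of G0s2 in 12 of 49 alternative analyses. The call of Abhd5 was lost when every library was rescaled to the same total (-0.19, adjusted p = 0.0600), which moved the median of all genes by 0.15 on the log2 scale; relative to that median Abhd5 stood at -0.36. Without the 3 libraries named above, all 8 average calls were kept.

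Within single weeks the 8 genes gave 56 pairs of gene and week, of which 55 were tested and 15 called, 9 higher and 6 lower in LIDPAD livers. At week 1, 1 of 8 was called lower (1.27% of all genes tested were), and at week 4 again 1 of 8 (0.166%). At week 8, 2 of 7 were called higher (3.85%), and at week 12, 1 of 8 was higher (8.99%) and 2 of 8 were lower (6.25%). At week 16, 3 of 8 were called higher (16.3%), at week 32, 2 of 8 lower (8.82%), and at week 48, 3 of 8 higher (6.54%). The count of falls thus came from weeks 1, 4, 12 and 32 and that of rises from weeks 8, 12, 16 and 48. Without the 3 libraries that stood apart, 13 of the 15 calls were kept, and the 2 lost were both of week 32. All 15 were kept without control library 2 of week 4. With edgeR 13 were kept and with DESeq2 15, but in the joint fit of all groups, which shares 1 estimate of the spread, 2 were kept (G0s2 at week 16 and Abhd5 at week 32). The joint fit also gained 2 calls, both lower in LIDPAD livers at week 32: G0s2 (limma adjusted p = 0.0166) and Mgll (adjusted p = 0.0233).

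**Figure D1:**
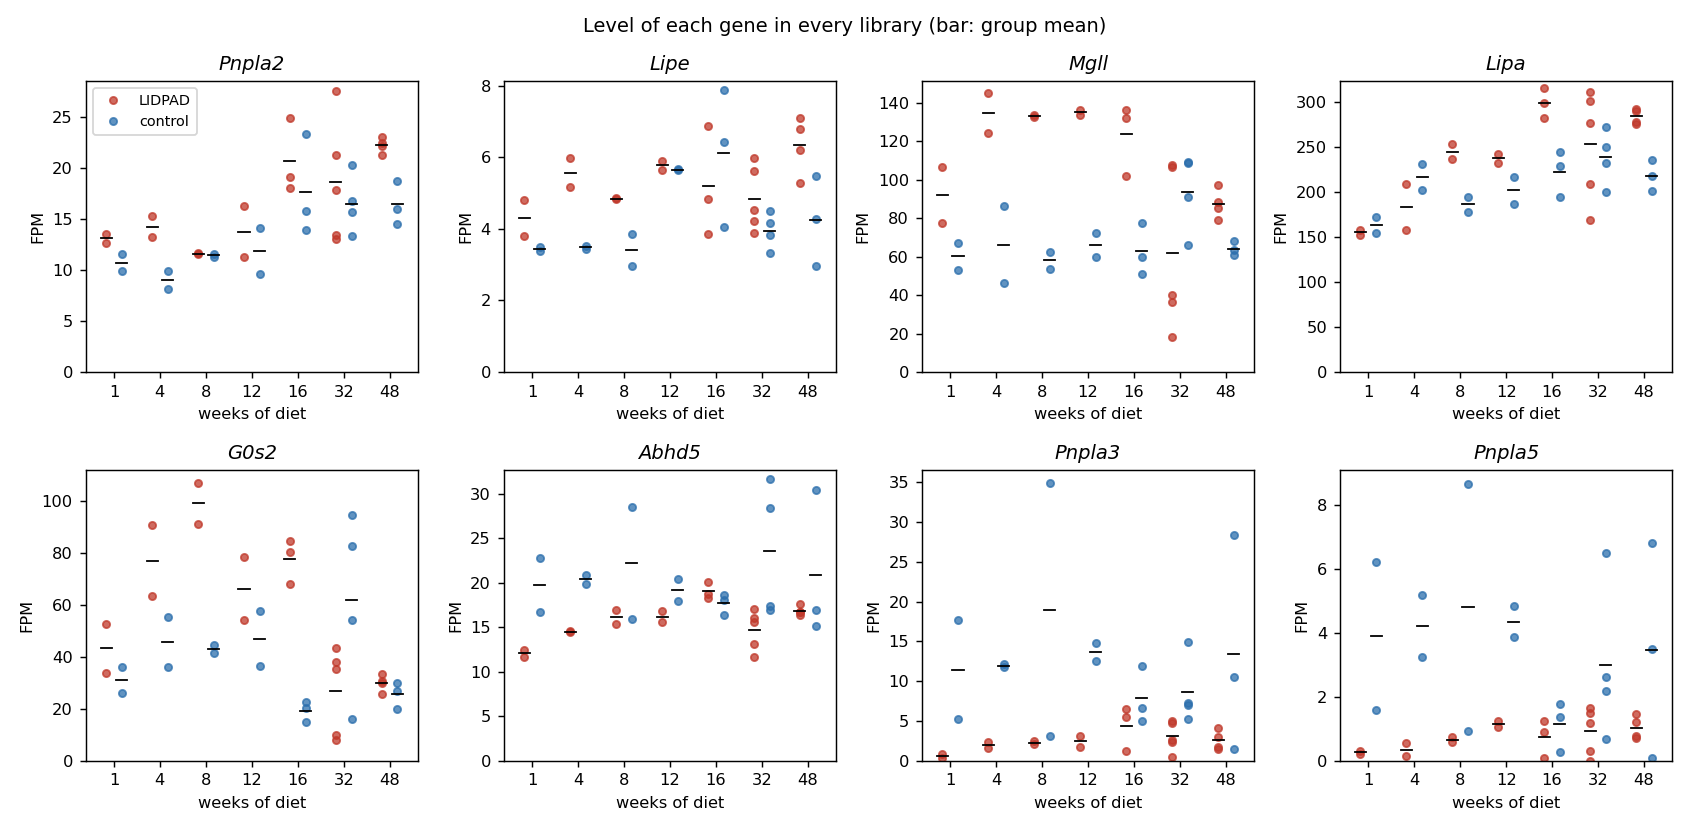
FPM of each of the 8 genes in every library (points), by weeks of diet, with LIDPAD (red) left of control (blue) and a bar at each group mean. Pnpla3 and Pnpla5 lie lower in LIDPAD than in most control libraries, Mgll lies higher in every week except week 32, and the vertical scale differs between genes.

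**Figure D2:**
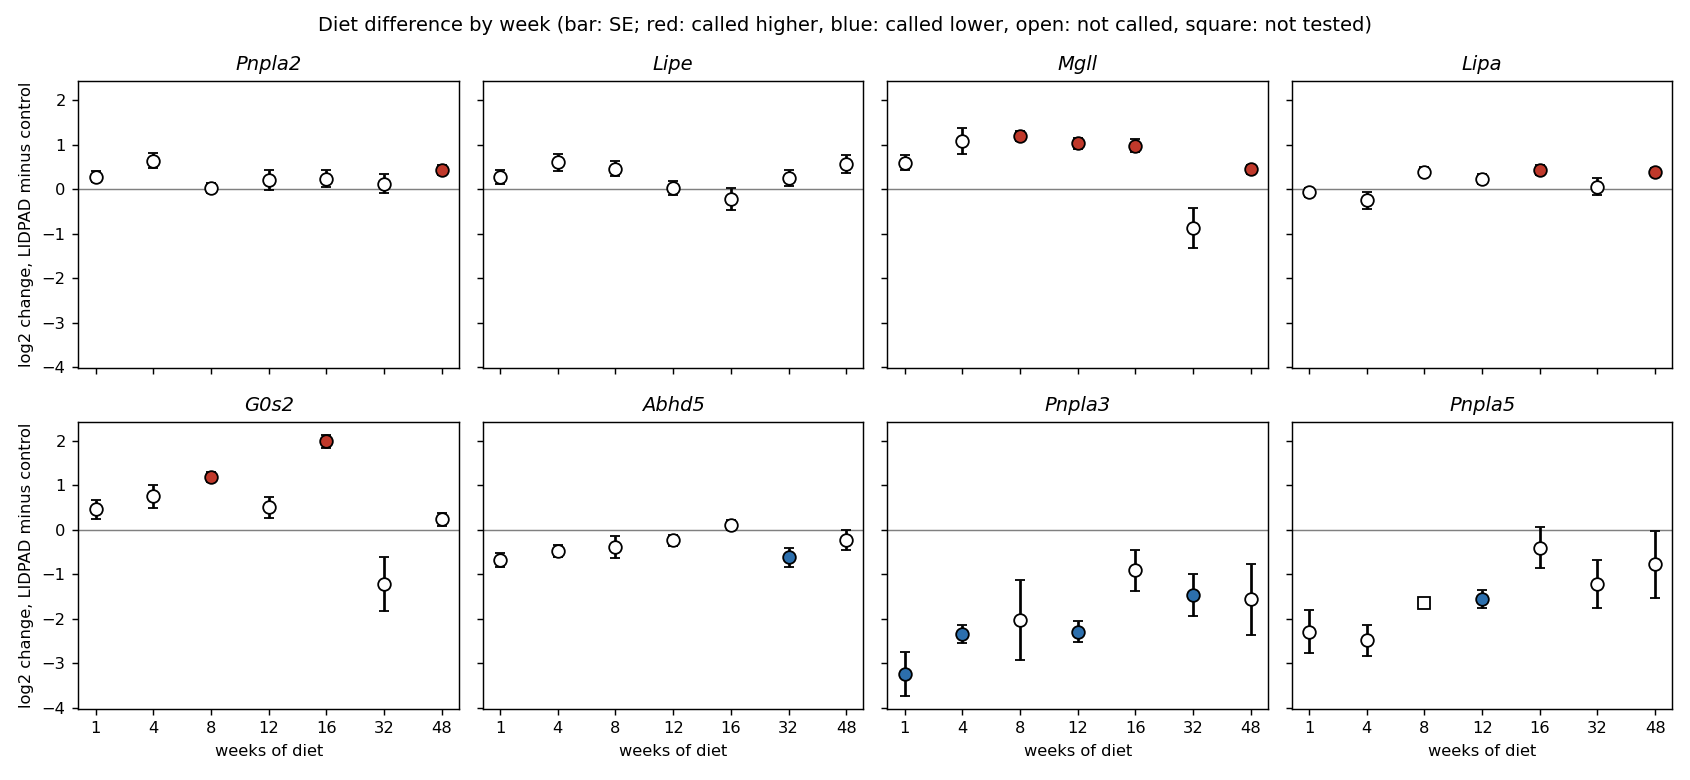
Diet difference of each gene by week as the log2 change, LIDPAD minus control, with SE bars. Filled points were called (red higher, blue lower), open points were not, and the square marks Pnpla5 at week 8, which was not tested.

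Per kilobase of exon, G0s2 and Lipa were the most abundant of the 8 transcripts and Pnpla5 and Lipe the least. In LIDPAD livers the median over 20 libraries was 55.3 FPM per kb for G0s2, 39.0 for Lipa, 21.0 for Mgll, 5.64 for Pnpla2, 2.72 for Abhd5, 1.52 for Pnpla3, 0.886 for Lipe and 0.346 for Pnpla5. In control livers the median over 18 libraries was 41.5 FPM per kb for G0s2, 30.9 for Lipa, 12.7 for Mgll, 7.20 for Pnpla3, 4.64 for Pnpla2, 3.08 for Abhd5, 1.34 for Pnpla5 and 0.674 for Lipe. By these medians over all weeks Pnpla3 ranked below Pnpla2 and Abhd5 in LIDPAD livers and above both in control livers, but not in every library. In LIDPAD library 3 of week 16 it stood at 4.23 FPM per kb, above Abhd5 at 3.16, and in control library 3 of week 16 at 3.27 FPM per kb, below Pnpla2 at 7.70.

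Pnpla3 showed the largest fall of the 8 genes, and it was lower by its mean in all 7 weeks. It lies on chr15:84167837-84187236 of GRCm38, plus strand, and Pnpla5 lies 44661 bases away on the minus strand at chr15:84112356-84123175. At week 1 Pnpla3 measured 0.377 and 0.824 FPM in LIDPAD livers, against 17.7 and 5.24 FPM in control livers, a change of -3.25 ± 0.49 (limma adjusted p = 0.0262). Both LIDPAD libraries lay under 1 FPM, so the gene entered the test of week 1 through its control level. The groups lay far apart, but the call was lost without control library 1 (-2.41, adjusted p = 0.0982).

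At week 4 Pnpla3 measured 2.32 and 1.63 FPM in LIDPAD livers and 12.1 and 11.8 FPM in control livers, a change of -2.34 ± 0.21 (limma adjusted p = 0.0227). At week 12 the values were 3.15 and 1.78 FPM in LIDPAD livers and 14.9 and 12.5 FPM in control livers, a change of -2.29 ± 0.23 (adjusted p = 0.000459). In these 2 weeks the replicates lay close together and every LIDPAD library was below every control library. The call of week 4 was lost after rescaling of the libraries (-2.29, adjusted p = 0.0520) and, like that of week 1, without the trend (adjusted p = 0.0684 at week 4 and 0.0846 at week 1). At week 8 the LIDPAD livers held 2.07 and 2.49 FPM, whereas the control livers held 34.9 and 3.10 FPM, and the change of -2.03 ± 0.91 was not called (adjusted p = 0.229). Control library 2 of week 8 held less Fasn, which encodes fatty acid synthase, than control library 1 of that week (1151 against 3880 FPM). Control library 2 of week 4 held still less Fasn, at 945.2 FPM, with 11.8 FPM of Pnpla3.

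In the later weeks the diets came closer together. At week 16 Pnpla3 measured 5.50, 1.23 and 6.54 FPM in LIDPAD livers and 11.9, 6.60 and 5.06 FPM in control livers, which overlapped (-0.91 ± 0.46, limma adjusted p = 0.168). At week 32 it measured 2.68, 0.521, 2.38, 5.05 and 4.69 FPM in LIDPAD livers and 6.97, 5.19, 14.9 and 7.28 FPM in control livers. The groups did not overlap, although the highest LIDPAD library lay just under the lowest control library, and the change was -1.46 ± 0.47 (adjusted p = 0.0379). The call of week 32 was lost without LIDPAD library 1 or 3, or control library 1, 3 or 4 (adjusted p from 0.0557 to 0.115), and without LIDPAD libraries 1 and 2 together (-0.95, adjusted p = 0.0721). By week 48 Pnpla3 measured 1.71, 1.53, 4.09 and 2.97 FPM in LIDPAD livers and 28.4, 1.52 and 10.5 FPM in control livers, a change of -1.57 ± 0.79 that was not called (adjusted p = 0.250). Control library 2 of week 48, the lowest of the 18 control libraries for Pnpla3, was also low in Fasn at 782.4 FPM, against 4222 and 2316 FPM in control libraries 1 and 3. Whether the diet effect on Pnpla3 differed between weeks was tested in the joint fit and not called (adjusted p = 0.739), so the smaller change of the later weeks was not shown to differ from the earlier ones.

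Where the Pnpla3 groups did not overlap, in weeks 1, 4, 8, 12 and 32, the share of all genes tested that were lower in LIDPAD livers without overlap was 24.4, 20.9, 27.1, 28.2 and 8.8%. Over all libraries Pnpla3 spanned 0.377 to 6.54 FPM in LIDPAD livers (median 2.35) and 1.52 to 34.9 FPM in control livers (median 11.1). Its level was therefore wide within the control diet as well as between diets. A measure of the circadian clock also differed between the groups: log2 Arntl minus log2 Dbp was lower in LIDPAD livers by 4.29, 4.78, 3.86 and 3.20 at weeks 1, 4, 8 and 12, with no overlap, and by 2.41 at week 48, again with no overlap. At weeks 16 and 32 it was lower by 0.81 and 1.01 and the diets overlapped. The hour of collection was not used here, and the part of clock phase in the Pnpla3 difference was not tested.

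Pnpla5, the neighbour of Pnpla3, was lower in LIDPAD livers by its mean in every week as well. At week 12 it measured 1.23 and 1.05 FPM in LIDPAD livers and 4.83 and 3.87 FPM in control livers, a change of -1.56 ± 0.20 (limma adjusted p = 0.00155). The groups were well separated at this week, the only week in which Pnpla5 was called (28.2% of all genes tested were lower without overlap). At week 1 the values were 0.315 and 0.213 FPM in LIDPAD livers and 6.21 and 1.58 FPM in control livers (-2.29 ± 0.49, adjusted p = 0.0754). At week 4 they were 0.544 and 0.148 FPM in LIDPAD livers and 5.18 and 3.23 FPM in control livers (-2.49 ± 0.35, adjusted p = 0.0680). In both weeks all LIDPAD libraries were under 1 FPM, so the gene entered the test through its control level, and it was not called. The groups did not overlap at weeks 1 and 4, where 24.4 and 20.9% of all genes tested were lower without overlap. At week 8 the gene was under the filter on low values and was not tested, with 0.573 and 0.735 FPM in LIDPAD livers against 8.66 and 0.940 FPM in control livers.

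From week 16 on, Pnpla5 overlapped between the diets. It ranged from 0.0792 to 1.26 FPM in LIDPAD livers and from 0.276 to 1.77 FPM in control livers at week 16, and the change of -0.40 ± 0.47 was not called (limma adjusted p = 0.563) and turned to 0.08 without LIDPAD library 2. At week 32 it measured 1.64, 0, 0.301, 1.20 and 1.5 FPM in LIDPAD livers and 2.19, 0.695, 6.51 and 2.60 FPM in control livers (-1.22 ± 0.55, adjusted p = 0.123). The library with no read held 15.4 M reads, which allows a level of up to 0.186 FPM (3 reads). This limit covers counting error only and takes single reads as independent. Values of 2 reads were 5.35 times as frequent as values of 1 read, so the limit may be too low. Week 48 gave 0.714, 1.45, 1.20 and 0.768 FPM in LIDPAD livers and 6.79, 0.0877 and 3.50 FPM in control livers (-0.78 ± 0.75, adjusted p = 0.568), with the lowest value in the same control library 2 in which Pnpla3 and Fasn were low.

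**Figure D3:**
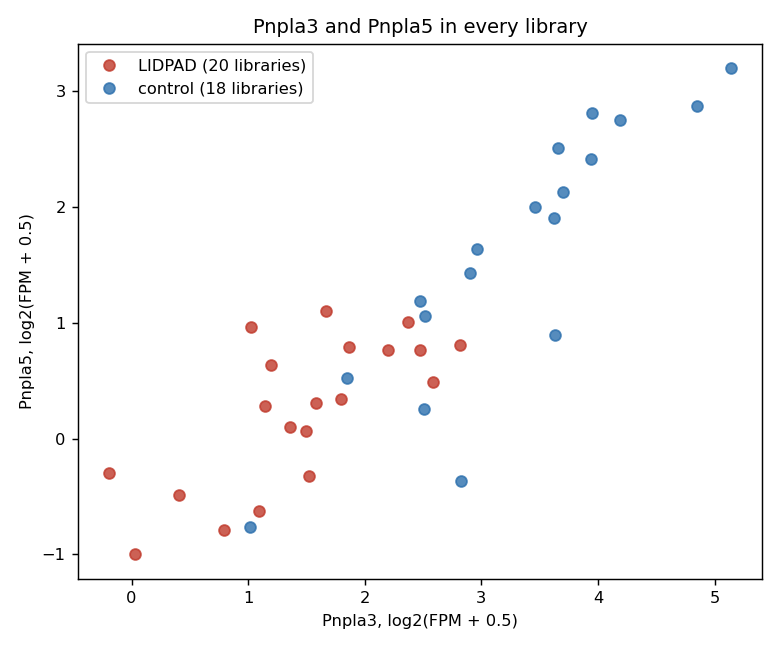
Level of Pnpla5 against that of Pnpla3, both as log2(FPM + 0.5), in 20 LIDPAD (red) and 18 control (blue) libraries, 1 point per library. The genes rise and fall together within each diet, with r = 0.784 in LIDPAD and 0.904 in control libraries after the mean of each group is taken out.

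Pnpla3 and Pnpla5 also varied together from library to library within a diet. After subtraction of the group means, Pearson's r between them was 0.784 over 20 LIDPAD libraries (Spearman's rho 0.62, permutation within weeks, p = 0.0118 and 0.0283). Over 18 control libraries r was 0.904 (rho 0.889, permutation p = 0.00446 and 0.00267). Pnpla3 also followed Fasn, with r of 0.818 in LIDPAD (rho 0.848, permutation p = 0.00302 and 0.00058) and 0.881 in control libraries (rho 0.765, permutation p = 0.0140 and 0.0248). With Scd1, which encodes the desaturase of fatty acid synthesis, r was 0.714 in LIDPAD (rho 0.615, permutation p = 0.0127 and 0.0238) and 0.889 in control libraries (rho 0.744, permutation p = 0.0138 and 0.0420). Adjusted over the 6 relations, p for Pearson's r was 0.0134 to 0.0140 and p for rho was 0.00348 to 0.0420. Leaving out the 2 libraries farthest from the median of Pnpla3 gave r of 0.510 with Pnpla5, 0.730 with Fasn and 0.569 with Scd1 in LIDPAD libraries, and 0.838, 0.780 and 0.806 in control libraries. These relations were chosen after the values of low control libraries had been seen, and the genes of a library share its depth and its time of collection.

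The promoters of the 2 genes that fell together and of the 2 genes most alike among the rises, Mgll and G0s2, are given here to show which of the searched motifs they hold. Each runs from 250 bases before to 50 bases after the start of transcription (RefSeq, GRCm38.p6), 5′ to 3′ on the strand of the gene, with CACGTG (E-box) and CCAAT, read here as its reverse complement, in capitals.
Pnpla3, chr15:84167566-84167865, plus strand: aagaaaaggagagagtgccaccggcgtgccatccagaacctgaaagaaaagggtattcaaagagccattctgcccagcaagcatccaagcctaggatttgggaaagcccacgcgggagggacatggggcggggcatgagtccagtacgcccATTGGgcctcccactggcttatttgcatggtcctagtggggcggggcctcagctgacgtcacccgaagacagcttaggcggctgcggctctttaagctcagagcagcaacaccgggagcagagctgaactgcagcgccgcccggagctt
Pnpla5, chr15:84123126-84123425, minus strand: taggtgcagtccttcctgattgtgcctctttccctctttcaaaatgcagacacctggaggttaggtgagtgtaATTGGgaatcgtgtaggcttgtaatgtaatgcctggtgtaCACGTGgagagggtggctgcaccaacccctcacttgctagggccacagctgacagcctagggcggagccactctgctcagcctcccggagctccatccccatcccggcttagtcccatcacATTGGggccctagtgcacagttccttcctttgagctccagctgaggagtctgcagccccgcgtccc
Mgll, chr6:88724162-88724461, plus strand: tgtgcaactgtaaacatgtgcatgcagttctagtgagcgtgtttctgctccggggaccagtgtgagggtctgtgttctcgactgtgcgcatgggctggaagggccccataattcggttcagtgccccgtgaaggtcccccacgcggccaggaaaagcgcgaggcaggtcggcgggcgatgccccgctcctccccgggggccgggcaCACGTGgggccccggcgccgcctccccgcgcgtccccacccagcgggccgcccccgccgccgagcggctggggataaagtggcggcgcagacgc
G0s2, chr1:193273139-193273438, minus strand: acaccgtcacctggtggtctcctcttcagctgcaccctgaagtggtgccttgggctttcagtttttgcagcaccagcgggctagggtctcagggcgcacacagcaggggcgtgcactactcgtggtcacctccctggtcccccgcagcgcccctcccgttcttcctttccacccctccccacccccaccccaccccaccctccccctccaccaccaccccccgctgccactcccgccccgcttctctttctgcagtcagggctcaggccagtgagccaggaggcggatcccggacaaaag

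Of the 6 motifs searched on both strands of the 10 promoters that matched the 8 genes, only the E-box and the CCAAT box were found. The E-box CACGTG stood at base -137 of Pnpla5, -44 of Mgll and -155 of Lipe, counted from the start of transcription, and 7.15% of 32851 promoters of the same length hold it. CCAAT, a motif added after the promoters had been read, stood at -99 of Pnpla3, at -177 and -16 of Pnpla5 and at -26 of Lipa, and 37.4% of promoters hold it. The sterol element TCACNCCAC (1.24% of promoters), the direct repeat bound by PPAR alpha (0.381%), the CLEAR element (0.326%), which contains an E-box, and the carbohydrate response element (0.0457%) had no match in these windows.

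Mgll, which encodes the lipase of the last step, was called higher at weeks 8, 12, 16 and 48. That is as many weeks as Pnpla3 was called lower. It lies on chr6:88724412-88828360 of GRCm38, plus strand. At week 8 it measured 134 and 132 FPM in LIDPAD livers and 53.4 and 62.5 FPM in control livers, a change of 1.20 ± 0.11 (limma adjusted p = 0.00480), and at week 12 it measured 134 and 136 FPM in LIDPAD livers and 59.9 and 72.1 FPM in control livers, a change of 1.03 ± 0.12 (adjusted p = 0.000922). At week 16 it measured 132, 136 and 102 FPM in LIDPAD livers and 77.3, 50.8 and 60.0 FPM in control livers, a change of 0.98 ± 0.16 (adjusted p = 0.000854). In these 3 weeks the LIDPAD level was about the same and the groups were far apart. After 48 weeks Mgll measured 97.1, 85.2, 88.4 and 79.2 FPM in LIDPAD livers and 63.3, 67.9 and 60.8 FPM in control livers, a change of 0.45 ± 0.09 (adjusted p = 0.0262). The call of week 8 was lost without LIDPAD library 2 (1.20, adjusted p = 0.0512), and that of week 48 without any single library except control library 3 (adjusted p from 0.0552 to 0.0871).

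At weeks 1 and 4 Mgll was higher without passing the threshold. At week 1 it measured 107 and 77.6 FPM in LIDPAD livers and 67.3 and 53.2 FPM in control livers (0.60 ± 0.17, limma adjusted p = 0.163). At week 4 it measured 145 and 124 FPM in LIDPAD livers and 86.3 and 46.1 FPM in control livers (1.08 ± 0.29, adjusted p = 0.258). The groups did not overlap in either week, and neither did they at weeks 8, 12, 16 and 48. The share of all genes tested that were higher in LIDPAD livers without overlap was 24.2, 21.3, 28.3, 29.3, 23.5 and 14.1% at weeks 1, 4, 8, 12, 16 and 48. Among control groups the mean of week 32 was the highest, at 93.7 ± 20.3 FPM (SD, n = 4), and the other control means lay between 58.0 and 66.2 FPM with overlapping ranges.

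Week 32 went the other way for Mgll. It measured 18.4, 36.6, 39.9, 108 and 106 FPM in LIDPAD livers and 109, 91.0, 66.0 and 109 FPM in control livers (-0.87 ± 0.46, limma adjusted p = 0.189). In the joint fit of all groups the same change was called lower (limma adjusted p = 0.0233). LIDPAD libraries 1, 2 and 3 were the lowest of all 38 libraries for Mgll, and LIDPAD libraries 4 and 5 lay within the control range. These 3 libraries were shallow, at 10.9, 15.4 and 15.1 M reads, and held 44.5, 27.4 and 30.2 FPM of Lipc, the hepatic lipase gene, against 71.2 and 60.0 FPM in LIDPAD libraries 4 and 5. Control library 3 of week 32 was shallow too, at 12.4 M reads, and held 66.0 FPM of Mgll and 113 FPM of Lipc. They and control libraries 1 to 3 had their reads divided among the deposited columns as in week 16, and the other 3 libraries as in week 48. Among libraries divided as in week 16, Mgll changed by -1.52 ± 0.31 and was called lower in LIDPAD livers (adjusted p = 0.0101). Those divided as in week 48 were LIDPAD libraries 4 and 5, at 108 and 106 FPM, and control library 4, at 109 FPM. Their change was -0.02, and with 1 control library no p-value is given. The part of depth and of this division in the week 32 values was not tested.

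G0s2, the inhibitor of adipose triglyceride lipase, rose at weeks 8 and 16. It lies on chr1:193272161-193273217 of GRCm38, minus strand. At week 16 it measured 68.0, 84.9 and 80.4 FPM in LIDPAD livers and 22.8, 15.0 and 20.3 FPM in control livers, a change of 1.99 ± 0.15 (limma adjusted p = 8.39e-06). At week 8 it measured 91.3 and 107 FPM in LIDPAD livers and 41.6 and 44.7 FPM in control livers, a change of 1.19 ± 0.11 (adjusted p = 0.00510). In both weeks every LIDPAD library was well above every control library. At weeks 8 and 16, 28.3 and 23.5% of all genes tested were higher without overlap. The clock measure given for Pnpla3 was lower in LIDPAD livers in both weeks, without overlap at week 8 and with overlap at week 16. The summed level of the clock genes at week 16 was 437 to 497 FPM in LIDPAD livers and 501.9 to 627 FPM in control livers, and the part of the clock in the G0s2 change was not tested. The call of week 8 was lost without LIDPAD library 2 (1.07, adjusted p = 0.0555).

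In the remaining weeks G0s2 was not called. It measured 52.7 and 34.0 FPM in LIDPAD livers and 26.1 and 36.1 FPM in control livers at week 1, and the groups overlapped (0.46 ± 0.22, limma adjusted p = 0.381). At week 4 it measured 90.7 and 63.4 FPM in LIDPAD livers and 55.4 and 36.1 FPM in control livers (0.75 ± 0.26, adjusted p = 0.358). It was higher there without overlap, as were 21.3% of all genes tested. At week 12 it measured 78.4 and 54.1 FPM in LIDPAD livers and 36.5 and 57.6 FPM in control livers (0.50 ± 0.23, adjusted p = 0.184). The groups overlapped at week 12 as they did at week 1. At week 32 it measured 10.0, 7.99, 38.1, 43.6 and 35.5 FPM in LIDPAD livers and 94.6, 83.0, 16.2 and 54.1 FPM in control livers (-1.22 ± 0.61, adjusted p = 0.169), with the lowest values in the LIDPAD libraries 1 and 2 that stood apart. Without those 2 libraries the change was -0.40 (adjusted p = 0.612). With all libraries, the joint fit of all groups called G0s2 lower at week 32 (limma adjusted p = 0.0166). Week 48 gave 33.4, 25.6, 30.8 and 29.9 FPM in LIDPAD livers and 20.0, 26.9 and 30.0 FPM in control livers (0.23 ± 0.15, adjusted p = 0.378).

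Mgll and G0s2 were the 2 of 8 genes whose diet effect differed between weeks in the joint limma fit, where 10.7% of all genes tested were called. The adjusted p was 0.0278 for G0s2, whose weekly changes spanned 3.21 on the log2 scale, and 0.0341 for Mgll, whose weekly changes spanned 2.07. Without week 32 the difference between weeks was kept for G0s2 (adjusted p = 0.0156) and lost for Mgll (adjusted p = 0.277). Without the 3 libraries that stood apart it was kept for both (adjusted p = 0.0270 for G0s2 and 0.0420 for Mgll). It was lost in 7 of 49 alternative analyses for G0s2 and in 15 of 49 for Mgll. For both it was lost without a filter (adjusted p = 0.0774 for G0s2 and 0.0930 for Mgll) and after rescaling of the libraries (0.0681 and 0.0721). Both also lost it without control library 1 of week 32 (0.0693 for G0s2 and 0.0843 for Mgll) or control library 2 of week 32 (0.0713 and 0.0689). The other 6 genes had an adjusted p of 0.250 to 0.791. Mgll was the second closest gene to G0s2 over the 14 group means of log2 FPM (Pearson's r = 0.83), after the predicted gene Gm15890 (r = 0.84) and before Ephx2, an epoxide hydrolase gene (r = 0.82).

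Pnpla2, which encodes adipose triglyceride lipase and lies on chr7:141455198-141460743 of GRCm38, plus strand, changed little with diet in single weeks. At week 48 it measured 22.4, 21.2, 22.1 and 23.0 FPM in LIDPAD livers and 14.5, 15.9 and 18.7 FPM in control livers, a change of 0.43 ± 0.10 (limma adjusted p = 0.0397). The groups did not overlap (14.1% of all genes tested were higher without overlap). The call was lost without any single library except control library 3 (adjusted p from 0.0946 to 0.124) and in edgeR (0.40, adjusted p = 0.0536). At week 4 it measured 13.3 and 15.2 FPM in LIDPAD livers and 8.11 and 9.85 FPM in control livers (0.64 ± 0.17, adjusted p = 0.258). In the other 5 weeks the change lay between 0.02 and 0.28 on the log2 scale and was not called. The means of Pnpla2 differed between weeks in both diets, a difference that was not tested: 20.6 ± 3.68 FPM in LIDPAD and 17.6 ± 4.95 FPM in control livers at week 16 (SD, n = 3 each), and 11.6 ± 0.0255 FPM in LIDPAD and 11.4 ± 0.201 FPM in control livers at week 8 (SD, n = 2 each). Weeks 1 to 12, week 16 and week 48 differed in how reads were divided among the deposited columns, so duration and this division cannot be told apart.

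Lipe, the gene of hormone-sensitive lipase on chr7:25379527-25398710 of GRCm38, minus strand, was called in 0 of 7 weeks by limma, while 3 weeks had an unadjusted p under 0.05 (edgeR and DESeq2 also called 0). After 48 weeks Lipe measured 5.28, 6.80, 6.19 and 7.09 FPM in LIDPAD livers and 4.27, 5.48 and 2.95 FPM in control livers (0.56 ± 0.20, adjusted p = 0.117). At week 4 it measured 5.16 and 5.98 FPM in LIDPAD livers and 3.52 and 3.45 FPM in control livers (0.60 ± 0.19, adjusted p = 0.317). The groups overlapped at week 48 and did not at week 4, where 21.3% of all genes tested were higher without overlap. At week 16 the mean was 5.19 ± 1.54 FPM in LIDPAD and 6.12 ± 1.93 FPM in control livers (SD, n = 3 each), the only week in which the mean of LIDPAD livers was the lower. Over all libraries Lipe stayed between 3.80 and 7.09 FPM in LIDPAD and between 2.95 and 7.88 FPM in control livers.

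Lipa, on chr19:34492318-34527474 of GRCm38, minus strand, encodes lysosomal acid lipase and moved little. At week 16 it measured 298.5, 282 and 315 FPM in LIDPAD livers and 244, 194 and 229 FPM in control livers, a change of 0.43 ± 0.11 (limma adjusted p = 0.0124). At week 48 it measured 291.6, 277.4, 275.5 and 289.8 FPM in LIDPAD livers and 218, 201 and 235 FPM in control livers, a change of 0.38 ± 0.09 (adjusted p = 0.0372). The groups did not overlap in either week, in which 23.5 and 14.1% of all genes tested were higher without overlap. At weeks 1 and 4 its mean was lower in LIDPAD livers, by 0.07 and 0.25 on the log2 scale, and not called. At weeks 8, 12 and 32 the change was 0.40 ± 0.11 (adjusted p = 0.0845), 0.23 ± 0.12 (adjusted p = 0.222) and 0.06 ± 0.19 (adjusted p = 0.861). The call of week 16 was lost without LIDPAD library 3 (0.39, adjusted p = 0.0608), and that of week 48 without any single library except control library 3 (adjusted p from 0.102 to 0.110) and in edgeR (0.34, adjusted p = 0.0694).

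Markers of macrophages, which also make the enzyme of Lipa, were higher in LIDPAD livers in the weeks in which Lipa was called. They were also higher in weeks in which it was not, but not at week 4. The summed level of 12 Kupffer cell and macrophage markers was 512 to 776 FPM in LIDPAD livers and 159 to 307 FPM in control livers at week 16, and 774 to 991.5 FPM in LIDPAD livers and 185 to 406 FPM in control livers at week 48. At week 32, where Lipa was not called, it was 625 to 2625 FPM in LIDPAD livers and 127 to 256 FPM in control livers. In that week 9 of the 12 markers were called higher (18% of all genes tested were), with the largest weekly median log2 change of the list (2.28). At weeks 8 and 12 likewise 9 of 12 were called higher (3.85 and 8.99% of all genes tested were) while Lipa was not called. At week 1 the sum was 222 to 339 FPM in LIDPAD livers and 169 to 199 FPM in control livers with 0 of 8 markers tested called. Week 4 went the other way, with a sum of 207 to 269 FPM in LIDPAD livers and 295 to 420 FPM in control livers. Of 11 markers tested at week 4, 0 were called higher and 1 lower (0.166% of all genes tested were), with a median log2 change of -0.70. Lipa was lower by its mean in that week too (-0.25, not called). On average 9 of the 12 markers were called higher (22.1% of all genes tested were) and 1 lower (15.4%), and none of the 12 was under 1 FPM in every library. Stellate cell markers also rose on average, with 6 of 7 called higher. At week 32 their sum was 158 FPM in LIDPAD library 1, under the control range (178 to 206 FPM), and 352 to 601 FPM in the other LIDPAD libraries. The part of these cells in the Lipa change was not tested.

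The activator gene Abhd5, on chr9:122351608-122381524 of GRCm38, plus strand, was lower by its mean in 6 of 7 weeks, or 5 of 7 with every library rescaled to the same total, and was called at week 32. At week 32 it measured 13.1, 15.6, 11.7, 17.1 and 16.1 FPM in LIDPAD livers and 17.0, 17.4, 31.7 and 28.4 FPM in control livers, a change of -0.62 ± 0.21 (limma adjusted p = 0.0439). LIDPAD library 4 lay above control library 1, so the groups overlapped, and the call was lost in 12 of 22 alternative analyses, among them those without LIDPAD library 1, 2, 3 or 5 or control library 3 or 4 (adjusted p from 0.0583 to 0.128). Within the libraries divided as in week 16 the change was -0.64 (adjusted p = 0.115). Those divided as in week 48 were LIDPAD libraries 4 and 5 and control library 4. Their change was -0.76, and with 1 control library no p-value is given. At week 1 it measured 12.5 and 11.7 FPM in LIDPAD livers and 22.8 and 16.8 FPM in control livers (-0.67 ± 0.15, adjusted p = 0.0926). At week 4 it measured 14.6 and 14.4 FPM in LIDPAD livers and 19.9 and 20.9 FPM in control livers (-0.48 ± 0.14, adjusted p = 0.290). The groups did not overlap in these early weeks, in which 24.4 and 20.9% of all genes tested were lower without overlap. At week 16, with 19.1 ± 0.901 FPM in LIDPAD and 17.7 ± 1.15 FPM in control livers (SD, n = 3 each), the mean of LIDPAD livers was the higher. The changes at weeks 8, 12 and 48 were -0.39 ± 0.25, -0.24 ± 0.13 and -0.23 ± 0.22 and were not called (adjusted p = 0.381, 0.260 and 0.556). The sign of 2 of these rests on 1 library each. Without control library 1 the change was 0.02 at week 8 and 0.07 at week 48 (adjusted p = 0.762 at week 48). Without control library 2 the change of week 8 was -0.80. Each of these week 8 fits left 1 control library, so no p-value is given for them.

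Over the 14 group means Abhd5 resembled the falling genes rather than its partner. Its Pearson's r was 0.89 with Pnpla3 and 0.81 with Pnpla5, against -0.14 with Pnpla2. The genes most like Abhd5 were Hectd2 (r = 0.93), Elovl6, a fatty acid elongase gene (r = 0.91), and Fkbp14 (r = 0.90). The genes most like Pnpla3 were Acly, which encodes ATP citrate lyase (r = 0.96), the acyl-CoA synthetase gene Acsl5 (r = 0.96) and Chrna4 (r = 0.95). For Mgll they were Chrna2 (r = 0.95) and the fat-oxidation genes Acad11 and Cpt2 (r = 0.94 each), and for Pnpla2 they were Rab7 (r = 0.94), Ubap2 and Rin3 (r = 0.93 each). These are descriptions over group means that share the diets and the sequencing of each week.

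**Figure D4:**
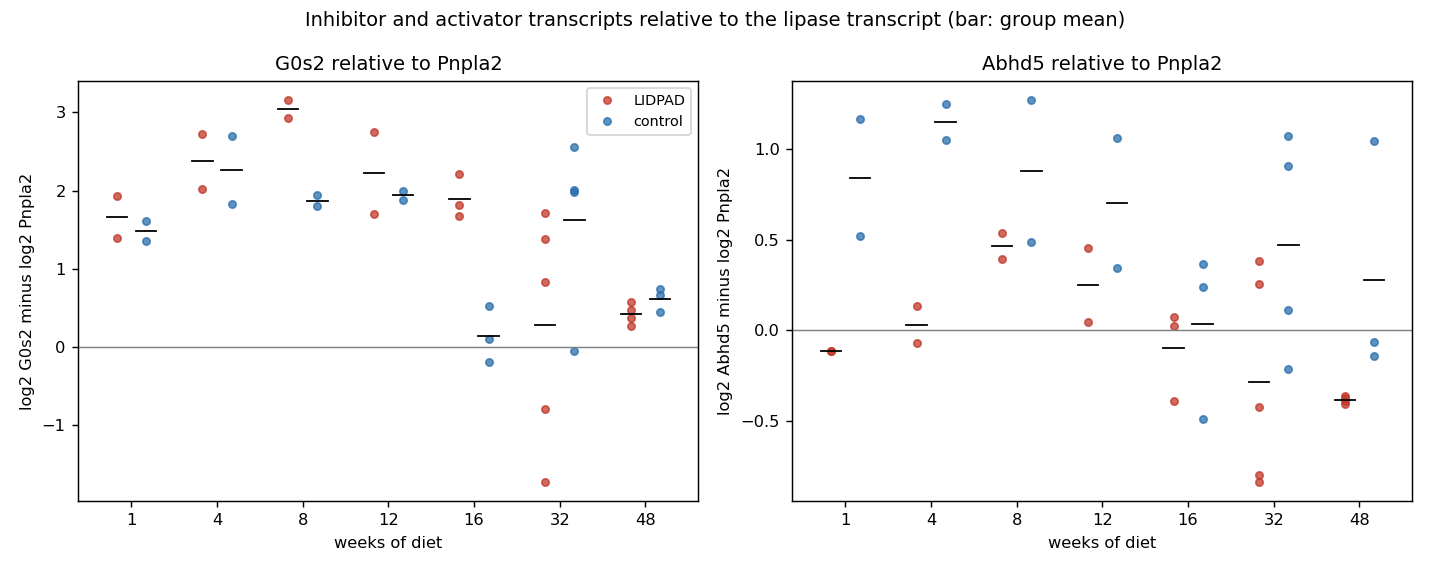
Log2 level of the inhibitor gene G0s2 (left) and of the activator gene Abhd5 (right) minus that of Pnpla2, in every library, with LIDPAD (red) left of control (blue) and a bar at each group mean. The inhibitor ratio is far higher in LIDPAD at week 16 (mean 1.90 against 0.15 in control), and the activator ratio has a lower mean in LIDPAD in each of the 7 weeks.

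The balance of regulator to lipase transcript was set out as differences of log2(FPM + 0.5) within a library. The activator ratio, Abhd5 to Pnpla2, had a lower mean in LIDPAD livers in each of the 7 weeks, although at week 16 the sign was lost without LIDPAD library 3 or control library 2 (0.01 and 0.03). At week 48 it was -0.38 ± 0.02 in LIDPAD livers (SD, n = 4) and 0.28 ± 0.66 in control livers (SD, n = 3), and no libraries overlapped (difference -0.66, two-sided exact permutation p = 0.0286, the smallest that week allows, 0.2 adjusted over the 7 weeks). At week 4 it was 0.03 ± 0.14 in LIDPAD livers and 1.15 ± 0.14 in control livers (SD, n = 2 each, difference -1.12), where the smallest p of the exact test is 0.333. The inhibitor ratio, G0s2 to Pnpla2, was 1.90 ± 0.28 in LIDPAD livers and 0.15 ± 0.36 in control livers at week 16 (SD, n = 3 each), a difference of 1.75 with no overlap and an exact permutation p of 0.1, the smallest that 3 against 3 libraries allow. At week 8 it was 3.04 ± 0.16 in LIDPAD livers and 1.87 ± 0.10 in control livers (SD, n = 2 each, difference 1.17), again with no overlap. At week 32 the difference was -1.35 and the diets overlapped (exact permutation p = 0.183). By the exact test 0 of 14 ratios passed 0.05 after adjustment over the weeks, and 1 did unadjusted.

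The lists of the wider pathway were read by their counts, beside a median log2 change of 0.01 over all genes tested on average, of which 22.1% were called higher and 15.4% lower. Of 16 lipogenic genes of SREBP-1c and ChREBP, 11 were called lower and 1 higher on average, with a median log2 change of -0.75. Acss2, an acetyl-CoA synthetase gene, changed by -2.18 ± 0.19 (limma adjusted p = 1.59e-09), Acly by -1.65 ± 0.22 (adjusted p = 1.13e-06) and Acacb, an acetyl-CoA carboxylase gene, by -1.52 ± 0.19 (adjusted p = 3.80e-07). Of 17 fat-oxidation genes of PPAR alpha, 13 were called higher, with a median of 0.48. Among them Vnn1, a pantetheinase gene, rose by 1.85 ± 0.25 (adjusted p = 1.12e-06), Acot2, an acyl-CoA thioesterase gene, by 1.35 ± 0.17 (adjusted p = 3.91e-07) and Acadm, a medium-chain acyl-CoA dehydrogenase gene, by 0.56 ± 0.07 (adjusted p = 2.79e-07).

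Several genes of droplet surface proteins other than the 8 also rose. Of 14 droplet regulators tested, 7 were called higher (22.1% of all genes tested were) and 1 lower (15.4%) on average (median 0.28). Cidec, which encodes a droplet fusion protein, rose by 3.40 ± 0.32 (limma adjusted p = 3.75e-09), Plin4, a perilipin gene, by 2.47 ± 0.21 (adjusted p = 1.05e-09) and Cidea by 1.78 ± 0.32 (adjusted p = 7.13e-05). Of 26 other neutral lipid hydrolases 5 were called higher and 5 lower (median -0.03), shares near those of all genes tested (22.1% and 15.4%). Lpl, the lipoprotein lipase gene, rose by 1.85 ± 0.28 (adjusted p = 5.65e-06) and Nceh1, a cholesterol ester hydrolase gene, by 0.83 ± 0.10 (adjusted p = 1.94e-07), whereas Ces3b, a carboxylesterase gene, changed by -0.93 ± 0.15 (adjusted p = 1.81e-05). Of 17 lysosomal genes, 8 were called higher and 2 lower (median 0.20), among them the hexosaminidase gene Hexa (0.85 ± 0.07, adjusted p = 1.42e-09) and Lamp1, which encodes a lysosomal membrane protein (0.35 ± 0.06, adjusted p = 2.06e-05).

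Fat cells, which hold much Pnpla2, Lipe, Mgll and G0s2, were looked for with 10 markers. Of these, 7 (Adipoq, Lep, Retn, Plin1, Slc7a10, Acvr1c and Tshr) were under 1 FPM in every library of both diets. Cfd, the adipsin gene, reached 102 FPM in LIDPAD and 4.51 FPM in control livers, and Fabp4 reached 43.9 FPM in LIDPAD and 36.8 FPM in control livers. The median of Fabp4 was 11.8 FPM in LIDPAD livers and 2.69 FPM in control livers. Of the 3 markers tested, 2 were called higher on average (median log2 change 1.32), where 22.1% of all genes tested were. The marker not called on average was Adrb3, with a median of 2.3 FPM in LIDPAD livers and 3.05 FPM in control livers. It changed by -0.26 ± 0.17 on average (limma adjusted p = 0.234) and was called lower at week 12 (-1.13, adjusted p = 0.00594). Without Cfd, the other 9 markers summed to between 4.39 and 52.8 FPM in LIDPAD livers and between 3.14 and 40.4 FPM in control livers, where the highest sum was that of control library 3 of week 48, one of the 3 that stood apart, and the other 17 control libraries reached at most 10.2 FPM with Cfd included. The part of fat cells in the values of the 8 genes was not tested. Some reads could not be assigned to 1 gene with certainty: exons of Lipe, Mgll and Abhd5 share 918, 167 and 950 bases with a gene on the other strand, and those of Pnpla3 share 105 bases with Gm49513 on the same strand, and the strand setting of the counting is not given in the sources used here.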

How the data were processed

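Liver RNA sequencing values were deposited by the authors as a signal per gene and sample in FPM, in which counts are divided by the size factor of the sample. Per the submitters' processing notes, HISAT2, featureCounts, DESeq2 and GRCm38 were used; roles, versions and strand setting are not given in the sources used here. Whole reads were recovered within 0.02 reads from 100% of values. Blocks of 4 consecutive columns, 152 in all, were averaged to 38 libraries. Chi-square per degree of freedom was 2.04 to 2.16 within blocks and 2.76 to 30.2 between blocks of a group, where independent single reads give about 1. Values of 2 reads were 5.35 times as frequent as values of 1 read.

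Each week was tested with limma 3.58.1 (R 4.3.3), with a mean-variance trend, two-sided, on log2(FPM + 0.5) of genes that reached 1 FPM in a number of libraries not below the size of the smaller group. A joint fit of 14 groups gave the average diet effect and the difference between weeks. Both fits were tested on simulated data. Alternatives used edgeR 4.0.16 and DESeq2 1.42.0 on the whole reads, which called 265 and 480 genes at week 1, 40 and 308 at week 4, 670 and 1264 at week 8, 2073 and 2044 at week 12, 3948 and 3933 at week 16, 3862 and 4575 at week 32 and 1181 and 2424 at week 48. Positions came from GENCODE M21 and promoters from RefSeq (GRCm38.p6).

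The members and lists were chosen with earlier results of these data known. Named besides the 8 genes are the 3 genes of each list with the smallest p for the average effect and the 3 genes most correlated with a member over group means. A lysosomal gene that this rule names is not reported here. Genes of single libraries that stood apart, and the relations of Pnpla3, were chosen after their values were seen. Results of the marker lists not given in the text follow, for the average over weeks. Of 7 pancreas acinar markers 1 was tested and was called lower (15.4% of all genes tested were). Of 15 clock genes tested 7 were called higher (22.1% of all genes tested were) and 5 lower.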

Additional observations from a re-analysis of the deposited data

Results flagged for a closer look

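The diet effect on G0s2 differed between weeks in the joint limma fit (interaction adjusted p = 0.0278), with LIDPAD above control at weeks 8 and 16 and below it by the mean at week 32. The diet effect on Mgll differed between weeks as well (adjusted p = 0.0341), with LIDPAD above control by the mean in every week except week 32. This difference for Mgll was lost in 15 of 49 alternative analyses, among them the joint fit without week 32 (adjusted p = 0.277). For G0s2 it was lost in 7 of 49. Among 24 groups of 4 or 5 libraries examined for a library far from the rest (3 groups for each gene), 0 had one, where chance gives about 1 in 20.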

How the results depend on the processing

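Fitting all 14 groups jointly lowered the weekly rises to 1 and the falls to 3. The falls were also 3 when each library was rescaled to 1000000 and 3 without the trend. With each deposited column as its own sample, rises numbered 22, falls 20 and differences between weeks 8. Differences between weeks, 2 of 8 genes, numbered 0 without a filter and 0 after rescaling, 1 with edgeR and 1 without week 32. The cause was not tested. The 8 average effects kept their count within 1.5 times throughout. Leaving out 1 library at a time gave 6 to 11 rises, 4 to 9 falls, 0 to 2 differences between weeks and 6 to 8 average effects, and for Abhd5 to Pnpla2 at week 48 a difference of -0.87 to -0.28, past the threshold in no case.

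Library numbers did not pair the samples (correlation of same-numbered deviations -0.102 to 0.106), and only names were shared. With library number as a replicate block, 11 of 15 weekly calls were kept, 6 were gained and 1 difference between weeks was left. Of 890 results under alternatives that were called neither way, 16 changed sign, and no called result did. With 2 libraries a group at weeks 1 to 12, a weekly call rests on the spread shared across genes. In those weeks a fit without 1 library leaves 1 library in a group. Pnpla5 had 15 and 8 reads in the LIDPAD libraries of week 1.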
